A study of Mus musculus with 64 samples.

Results

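The comparison described here set mice labelled Clock delta 19 mutant against mice labelled Wildtype, all treated with valproate (VPA), and covered 16 of the 64 libraries of the series. The mutant label held 8 mice (numbers 25 to 31 and 58) and the wildtype label held 8 mice (numbers 1 to 8), chosen by their genotype and treatment labels and by no measured value. Every mouse was an adult male of the strain given as 129S1/Svlm, received VPA for 14 days, and was killed at zeitgeber time 6 (6 h after lights on), about 24 h after the last treatment. RNA came from bilateral 1 mm punches over the ventral tegmental area (VTA), with 1 library per mouse, and read counts per gene were deposited. Another 3 pairs of groups from the same series serve below for comparison. Under ACY957, which inhibits class I histone deacetylases, there were 8 mutant-labelled and 8 wildtype-labelled mice. The VPA vehicle had 13 and 3 mice of these labels, and the ACY957 vehicle had 11 and 5. The study's design text gives 8 mice for each group, which the genotype labels of the vehicle mice do not match, so every vehicle contrast below holds for the labels as they stand. Unless the VPA libraries alone are named, the gene tests below estimated the spread over the vehicle libraries too. These labels therefore also enter the p-values of the VPA contrast.

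VPA is a mood stabiliser that inhibits histone deacetylases. The VTA holds the mesolimbic dopamine neurons, and mice with the Clock delta 19 allele are known for hyperactivity and raised firing of these neurons. In the circadian clock, CLOCK pairs with BMAL1 (gene Arntl) and binds E-boxes, short DNA motifs, to drive the genes of its own repressors (the Per, Cry, Nr1d and Bhlhe families and Ciart) and of output transcription factors such as Dbp, Tef and Hlf. The PER and CRY proteins block CLOCK and BMAL1, and the NR1D proteins repress Arntl. Clock delta 19 codes for a CLOCK protein that still pairs with BMAL1 but has lost part of its activating region. Counts per gene do not show which allele a mouse carries, so the level of Clock checks nothing about the labels.

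The gene lists used below were written with earlier results of these data known. Under VPA, 5 of 10 repressors and 4 of 16 tested outputs of the clock passed as lower in the mutant label, beside 0.294% of all genes tested. Among them were Per2, Ciart and Dbp at 37.3%, 29.5% and 48.6% of the wildtype-label mean, and Arntl, of the activating side, was higher, at 166%. Outside the clock, genes that were lower with no overlap between the labels included Eif5a2 at 34.2%, Mthfd1l at 35.1%, Fmo2 at 19.9% and Epor at 48.3% of the wildtype-label mean. Several genes known from glia or vessels, such as Adgrg1, Gpr37l1 and Cldn5, were moderately higher, with Emp2, a membrane protein gene. The largest increases, in the hypothalamic peptide genes Pmch and Hcrt, lay in the mutant-labelled libraries with the least Th.

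Of 15634 genes tested, 157 (1.00%) passed edgeR's quasi-likelihood test at a Benjamini-Hochberg adjusted p of 0.05, with 111 (0.710%) higher and 46 (0.294%) lower in the mutant label. Log2 fold changes below are the mutant label over the wildtype label, with standard errors (SE) from that test. CPM are counts per M of the library total after TMM scaling.

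Of the 16 libraries, 4 stood apart in markers of dopamine neurons or of tissue next to the VTA, and 1 in markers of mural cells and fibroblasts. Th, or tyrosine hydroxylase, with which dopamine synthesis begins, was at 26.3 CPM at the lowest, 603 at the median and 1432 at the highest in the mutant label, against 98, 1034 and 1716 CPM in the wildtype label. The low values were 44.2 CPM in mouse 26 and 26.3 CPM in mouse 58 of the mutant label, and 98 CPM in mouse 3 of the wildtype label. Mouse 31 of the mutant label had the next lowest Th, 304 CPM, and the other 12 libraries had 544 CPM or more. Slc6a3, the dopamine transporter, was likewise low, at 66.4 CPM in mouse 26 and 6.66 in mouse 58 against 269 in mouse 3, so in mouse 58 the defining markers of the labelled tissue were nearly absent. In bulk tissue, fewer dopamine neurons in a punch and less RNA per neuron cannot be told apart. Mouse 28 of the mutant label had 716 CPM summed over 14 mural and fibroblast markers, against 305 to 383 CPM in the other 7 mutant-labelled mice and 287 to 422 CPM in the wildtype label. Gfap, an intermediate filament gene of astrocytes, was also highest in it, at 406 CPM, with 143 CPM or less in the other mutant-labelled mice and 202 CPM or less in the wildtype label.

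The mutant-labelled libraries were also shallower. They held 26.1 ± 1.02 M counts, against 31.6 ± 4.04 M in the wildtype label (mean ± SD, n = 8 each; exact permutation test, two-sided p = 0.00404), and all 8 were below the wildtype-label median. Wildtype-labelled mice 7 and 8 held 25.7 M counts each, within the mutant-label range of 25.2 to 28.2 M. The other wildtype-labelled mice held 31.7 M or more. With the 16 libraries thinned to 25.2 M counts each, 123 genes passed (87 higher, 36 lower), and 119 of them were among the 157. The labels name no batch. The mouse numbers of the groups do not overlap, so the genotype label cannot be told apart from anything else that ran with them.

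Removing single libraries moved the count of 157 widely. It was 96, 75 and 56 without mutant-labelled mouse 26, 31 or 58, and 295 and 284 without mutant-labelled mouse 27 or 30. Among wildtype-labelled mice it was 504 without mouse 3, and 59, 94, 56, 51 and 80 without mouse 1, 2, 4, 5 or 6. Without the 3 libraries low in Th it was 85 (0.546% of 15581 genes), with 53 higher (0.340%) and 32 lower (0.205%), and 66 of them were among the 157. Of the 111 higher genes 36 were kept, and of the 46 lower genes 30. Of the 26 genes higher by at least 1 on the log2 scale, 3 remained.

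A set of 37 genes (16 higher, 21 lower) passed in 5 fits: with all libraries, without the 3 low in Th, with the 16 VPA libraries alone, and with DESeq2 and limma voom. Of these, 24 also passed in all 16 fits that left out 1 library. The 13 lower ones were Nln, Cndp2, Eif5a2, Fmo2, Ifit3, Pdk3, Mthfd1l, Coq10b, Lonrf1, Epor, Cry2, Kirrel2 and Stra6. The 11 higher ones were Emp2, Adgrg1, Dnaic1, Rlbp1, Paqr6, Thrsp, Arntl, S1pr4, Gpr37l1, Tspan15 and Vstm4.

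Among the repressors of the clock, all 10 listed genes were lower in the mutant label and 5 passed the test, beside 0.294% of all genes. The list's median log2 fold change was -0.61, and -0.72 without the 3 libraries low in Th, against 0.00 over all genes tested. Per2 (chr1:91415982-91459324, minus strand, mm10), a period gene, had 1.49 CPM at the lowest, 2.29 at the median and 8.2 at the highest in the mutant label, against 6.49, 7.4 and 10.7 CPM in the wildtype label. Mouse 26, at 8.2 CPM, lay within the wildtype-label range, and the other 7 mutant-labelled mice lay below it. The log2 fold change of Per2 was -1.42 (SE 0.34; edgeR adjusted p = 0.0278) and -1.78 without the 3 libraries (adjusted p = 0.00925). Leaving out wildtype-labelled mouse 1 or mutant-labelled mouse 31 or 58 put the adjusted p of Per2 at 0.0575, 0.0561 and 0.0703.

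Cry2 (chr2:92403646-92434043, minus strand), a cryptochrome that blocks CLOCK and BMAL1, did not overlap between the labels. It had 45.8, 55.3 and 75.4 CPM (lowest, median, highest) in the mutant label, against 78.2, 89.4 and 102 CPM in the wildtype label. The highest mutant-labelled value was again that of mouse 26, and the next was 61.6 CPM. The log2 fold change was -0.65 (SE 0.14; edgeR adjusted p = 0.0132). Nr1d2, which codes for the nuclear receptor REV-ERB beta, did not overlap either, with 106, 118 and 154 CPM in the mutant label against 167, 197 and 221 CPM in the wildtype label. Its fold change of -0.68 (SE 0.18) passed narrowly (edgeR adjusted p = 0.0462) and no longer passed without the 3 libraries (-0.78, adjusted p = 0.0609). It was also lost in 13 of the 16 fits that left out 1 library, that is in all but those without mutant-labelled mouse 26 or 27 or wildtype-labelled mouse 3 (adjusted p up to 0.103). Across all alternative fits (edgeR, DESeq2 or limma voom) the adjusted p of Nr1d2 ranged from 1.70e-05 to 0.111.

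Ciart, a repressor also called CHRONO, was at 1.06, 1.96 and 5.26 CPM in the mutant label, against 4.58, 7.1 and 10.8 CPM in the wildtype label. Mouse 26 was the one mutant-labelled library that reached the wildtype-label range. Its log2 fold change was -1.76 (SE 0.47; edgeR adjusted p = 0.0456), and -2.20 without the 3 libraries (adjusted p = 0.0342). Bhlhe41, or DEC2, which competes for E-boxes, was at 34.1, 37.5 and 50.8 CPM in the mutant label, against 49.3, 53.7 and 69.3 CPM in the wildtype label (log2 fold change -0.52, SE 0.13; edgeR adjusted p = 0.0355). Of the 16 fits without 1 library, Ciart passed in the 4 that left out mutant-labelled mouse 26, 27 or 30 or wildtype-labelled mouse 3 (adjusted p up to 0.106 in the rest). Bhlhe41 was lost in 7, without mutant-labelled mouse 31 or 58 or wildtype-labelled mouse 2, 4, 5, 6 or 7 (adjusted p up to 0.0734).

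The other 5 repressors did not pass in the fit of all libraries. Per1 had 13.9 CPM at the median in the mutant label against 20.4 in the wildtype label (log2 fold change -0.58; edgeR adjusted p = 0.0609), and Per3 had 3.82 against 7.14 CPM (-0.69; adjusted p = 0.0934). For both, 7 of 8 mutant-labelled mice lay below the lowest wildtype-labelled mouse. Across the alternative fits (edgeR, DESeq2 or limma voom) the adjusted p ranged from 0.0129 to 0.204 for Per1. For Per3 it ranged from 3.72e-05 to 0.207. Cry1 (-0.31) had an adjusted p of 0.0877 with all libraries, and it passed without the 3 (-0.42; adjusted p = 0.0313). Nr1d1 (-0.19) and Bhlhe40 (-0.26) overlapped broadly between the labels, and neither passed in any alternative fit.

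**Figure D1:**
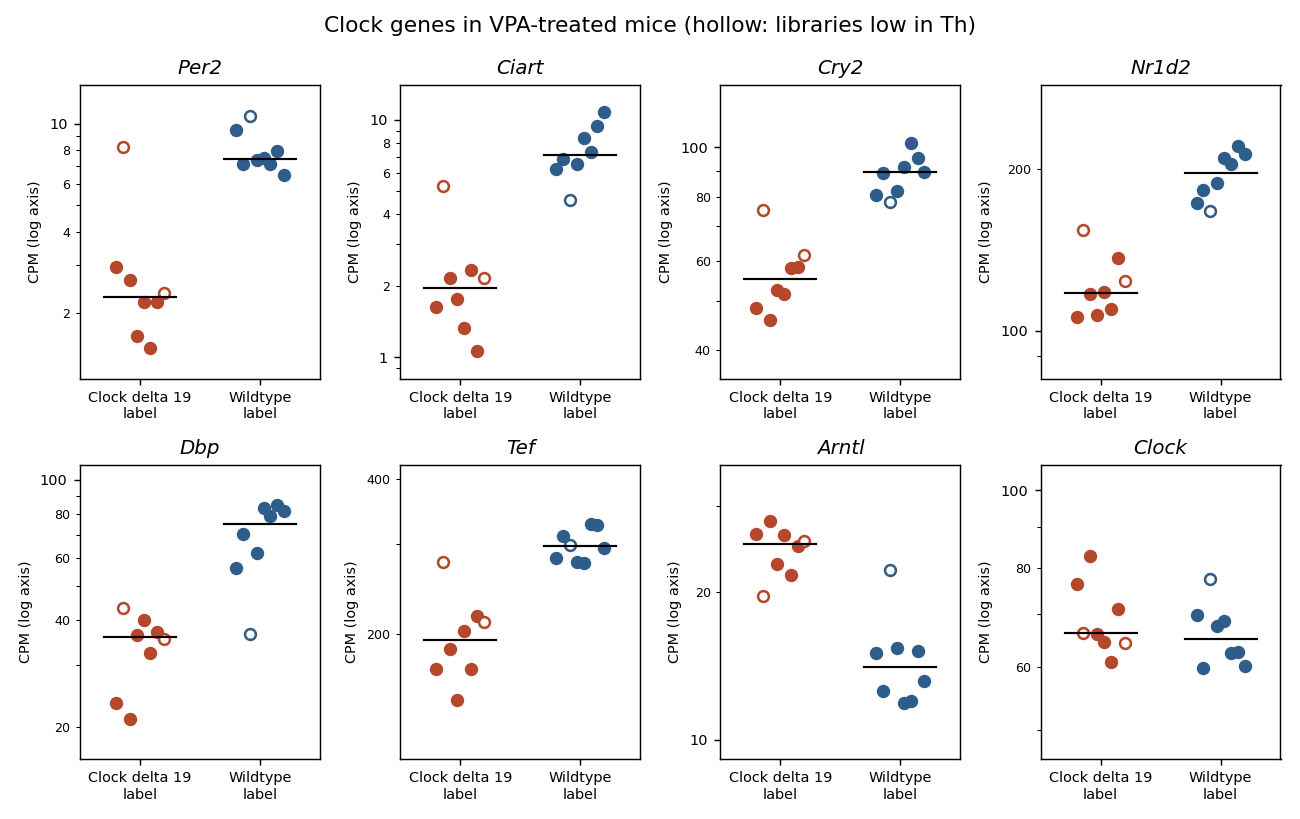
Each panel plots 1 clock gene in CPM on a log axis, with the 8 mutant-labelled VPA mice on the left and the 8 wildtype-labelled ones on the right; points are libraries, lines are medians, and hollow points are the 3 libraries low in Th. Cry2 and Nr1d2 lie lower in all 8 mutant-labelled mice, Per2, Ciart and Tef in 7 of 8, with the hollow point of mouse 26 in the wildtype-label range, Arntl overlaps only at the hollow point of wildtype-labelled mouse 3 (22.2 CPM), and Clock overlaps broadly.

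The output genes of the clock gave 4 that passed, all lower, of 16 tested, beside 0.294% of all genes, and a median log2 fold change of -0.24. Dbp (chr7:45705088-45710203, plus strand), a transcription factor and one of the most direct readouts of CLOCK activity, had 21.1, 35.9 and 43.3 CPM in the mutant label, against 36.7, 74.7 and 84.6 CPM in the wildtype label. The overlap came from wildtype-labelled mouse 3, at 36.7 CPM, and the other 7 wildtype-labelled mice had 56.2 CPM or more. The log2 fold change of Dbp was -1.04 (SE 0.26; edgeR adjusted p = 0.0307). Its relatives Tef (-0.59; adjusted p = 0.0379) and Hlf (-0.43; adjusted p = 0.039) were lower as well. Coq10b, a coenzyme Q binding protein of mitochondria, did not overlap between the labels, at 37.7 to 48 CPM in the mutant label against 52.6 to 66.1 CPM in the wildtype label (-0.47; edgeR adjusted p = 0.0103). Nfil3, a repressor that opposes DBP, had a log2 fold change of 0.52 with all libraries (adjusted p = 0.0626), and passed as higher without the 3 (0.65; adjusted p = 0.0296). Leaving out single libraries kept Coq10b in all 16 fits. Dbp was lost in 5, without mutant-labelled mouse 58 or wildtype-labelled mouse 4, 5, 6 or 7 (adjusted p up to 0.075). Tef was lost in 10, without mutant-labelled mouse 25, 28, 31 or 58 or wildtype-labelled mouse 1, 2, 4, 5, 6 or 7 (up to 0.073), and Hlf in 7, without mutant-labelled mouse 29 or 31 or wildtype-labelled mouse 1, 2, 4, 5 or 7 (up to 0.0818).

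Because CLOCK and BMAL1 act through E-boxes, the promoters of 5 of the 6 lower clock genes with the smallest p-values, all but Per2, were read from RefSeq (GRCm38.p6), from 250 bases before to 50 after the start site. Both strands were searched for CACGTG, the canonical E-box, and for CACGTT, a variant that reads AACGTG on the other strand, and no window printed here held both. Capitals mark a match. Coq10b (chr1:55052520-55052819, plus strand), Bhlhe41 (chr6:145865371-145865670, minus strand) and Tef (chr15:81802423-81802722, plus strand) held CACGTG. Cry2 (chr2:92434020-92434319, minus strand) held AACGTG, and Dbp (chr7:45704997-45705296, plus strand) neither. Of all 32851 promoters in the table, 7.15% held CACGTG and 4.68% held CACGTT on either strand.
Coq10b: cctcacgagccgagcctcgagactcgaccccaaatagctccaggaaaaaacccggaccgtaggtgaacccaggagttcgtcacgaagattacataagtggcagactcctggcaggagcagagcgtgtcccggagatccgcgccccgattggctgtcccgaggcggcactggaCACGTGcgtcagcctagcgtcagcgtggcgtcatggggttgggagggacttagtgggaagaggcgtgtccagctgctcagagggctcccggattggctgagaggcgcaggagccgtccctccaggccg
Cry2: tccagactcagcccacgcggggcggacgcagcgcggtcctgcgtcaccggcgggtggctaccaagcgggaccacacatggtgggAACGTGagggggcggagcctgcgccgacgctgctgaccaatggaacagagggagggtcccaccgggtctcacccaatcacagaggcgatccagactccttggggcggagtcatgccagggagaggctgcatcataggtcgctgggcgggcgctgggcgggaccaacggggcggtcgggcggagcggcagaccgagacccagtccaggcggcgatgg
Dbp: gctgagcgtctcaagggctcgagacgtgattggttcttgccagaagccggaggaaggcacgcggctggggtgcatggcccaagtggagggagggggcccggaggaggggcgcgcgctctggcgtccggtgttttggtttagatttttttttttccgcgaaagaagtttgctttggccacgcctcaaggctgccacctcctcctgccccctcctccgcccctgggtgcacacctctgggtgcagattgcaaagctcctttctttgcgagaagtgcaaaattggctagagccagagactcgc
Bhlhe41: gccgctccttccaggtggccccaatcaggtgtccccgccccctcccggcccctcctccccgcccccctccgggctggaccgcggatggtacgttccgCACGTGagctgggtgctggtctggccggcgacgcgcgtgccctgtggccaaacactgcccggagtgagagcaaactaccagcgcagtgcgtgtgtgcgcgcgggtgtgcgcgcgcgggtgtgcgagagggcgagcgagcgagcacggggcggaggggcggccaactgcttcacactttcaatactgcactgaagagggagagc
Tef: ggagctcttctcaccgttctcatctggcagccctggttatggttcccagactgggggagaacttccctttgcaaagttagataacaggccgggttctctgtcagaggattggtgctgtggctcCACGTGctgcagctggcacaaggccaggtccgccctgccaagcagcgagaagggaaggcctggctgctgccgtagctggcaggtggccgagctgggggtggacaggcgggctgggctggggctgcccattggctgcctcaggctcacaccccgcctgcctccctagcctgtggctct
The match began 78 bases before the start site in Coq10b, 166 in Cry2, 153 in Bhlhe41 and 127 in Tef. A second listed start site of Tef also held CACGTG. Such a match describes the letters of the window and shows no binding.

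On the activating side, Arntl (chr7:113207465-113314126, plus strand) was the one of 7 listed genes that passed. It had 19.6, 25.1 and 27.9 CPM in the mutant label, against 11.9, 14.1 and 22.2 CPM in the wildtype label. The overlap came from wildtype-labelled mouse 3, at 22.2 CPM, and the other 7 wildtype-labelled mice had 15.4 CPM or less. Without the 3 libraries low in Th the labels did not overlap. The log2 fold change was 0.73 (SE 0.14; edgeR adjusted p = 0.00345), and 0.88 without them (adjusted p = 9.68e-04). Clock itself (chr5:76209868-76304792, minus strand) had 61, 66.2 and 82.7 CPM in the mutant label, against 59.9, 65.2 and 77.4 CPM in the wildtype label (0.06, SE 0.10; edgeR adjusted p = 0.825). Npas2, which can stand in for CLOCK, had a log2 fold change of 0.18, and Rora, Rorb and Arntl2 lay between -0.07 and 0.11 with adjusted p of at least 0.778 (edgeR).

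Mouse 26 departed from its label in the clock genes. As the mean log2 CPM of 8 of them (Dbp, Tef, Per2, Per3, Nr1d1, Nr1d2, Ciart and Bhlhe41), it scored 5.0, while the other 7 mutant-labelled mice lay between 4.04 and 4.31 and the 8 wildtype-labelled mice between 5.01 and 5.37. It was the highest mutant-labelled library for 9 of the 10 repressors and for 18 of the 46 lower genes. In 9 of those 46 it reached the wildtype-label range while the other 7 mice stayed below it (Ifit3b, Stra6, Per2, Bhlhe41, Tef, Spata5, Ciart, Ivd and Rasd2). Yet the library did not follow the wildtype label throughout. Eif5a2, at 104 CPM in mouse 26, was at the level of its own label. Cry2, which is not in the score, was at 75.4 CPM in mouse 26, and Nr1d2 at 154 CPM, both below every wildtype-labelled mouse. How the score depends on the choice of genes was not tested. Mouse 58, also low in Th, scored 4.31 with its label. Mouse 3 scored 5.01, the lowest of the wildtype label. The part of the punch in the values of mice 26 and 3 was not tested.

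Outside the clock, several single genes were lower with no overlap between the labels. Eif5a2 (chr3:28781276-28798846, plus strand), a second gene for the translation factor eIF5A, had 62.7, 102 and 127 CPM in the mutant label, against 204, 283 and 342 CPM in the wildtype label. No library of either label reached the other's range. The log2 fold change was -1.55 (SE 0.28; edgeR adjusted p = 0.00158) and -1.56 without the 3 libraries low in Th. Of the 8 tested genes of eIF5A and its hypusine modification, Eif5a2 alone passed, and the list's median was -0.02.

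Mthfd1l (chr10:3973118-4167081, plus strand), an enzyme of mitochondrial one-carbon metabolism, had 4.72, 5.52 and 11.1 CPM in the mutant label, against 15.5, 18.3 and 18.6 CPM in the wildtype label. The groups were apart, although mouse 26, at 11.1 CPM, stood between them, with 6.54 CPM as the next mutant-labelled value. Its log2 fold change was -1.51 (SE 0.31; edgeR adjusted p = 0.00604), and it was the one of 16 tested genes of folate and one-carbon metabolism to pass. Fmo2 (chr1:162874317-162898726, minus strand), a flavin monooxygenase, was low in every library, at 0.275, 0.596 and 1.41 CPM in the mutant label against 1.52, 3.18 and 4.48 CPM in the wildtype label. Of the 13 lower genes that passed in every fit above, it had the most negative fold change, -2.33 (SE 0.44; edgeR adjusted p = 0.0025), with no overlap.

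Epor (chr9:21958897-21963506, minus strand), the erythropoietin receptor, had 1.37, 2.3 and 3.39 CPM in the mutant label, against 3.7, 4.92 and 6.05 CPM in the wildtype label (-1.05, SE 0.23; edgeR adjusted p = 0.0126). Cndp2, a cytosolic dipeptidase, had 36.9, 44.3 and 48.5 CPM in the mutant label, against 55.3, 74.9 and 87.3 CPM in the wildtype label (-0.75, SE 0.13; edgeR adjusted p = 7.98e-04). Neither gene overlapped between the labels. Lonrf1, a RING finger gene (-0.46; adjusted p = 0.0126), and Gpr155, a lysosomal membrane protein (-0.36; adjusted p = 0.0147), also did not overlap, but Gpr155 no longer passed without the 3 libraries low in Th (-0.33; adjusted p = 0.087). In all, 16 genes (0.102% of those tested) were lower in the mutant label with no overlap, and 11 of them passed. Those were Cndp2, Coq10b, Cry2, Eif5a2, Epor, Fmo2, Gpr155, Lonrf1, Mthfd1l, Nop14 and Nr1d2.

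**Figure D2:**
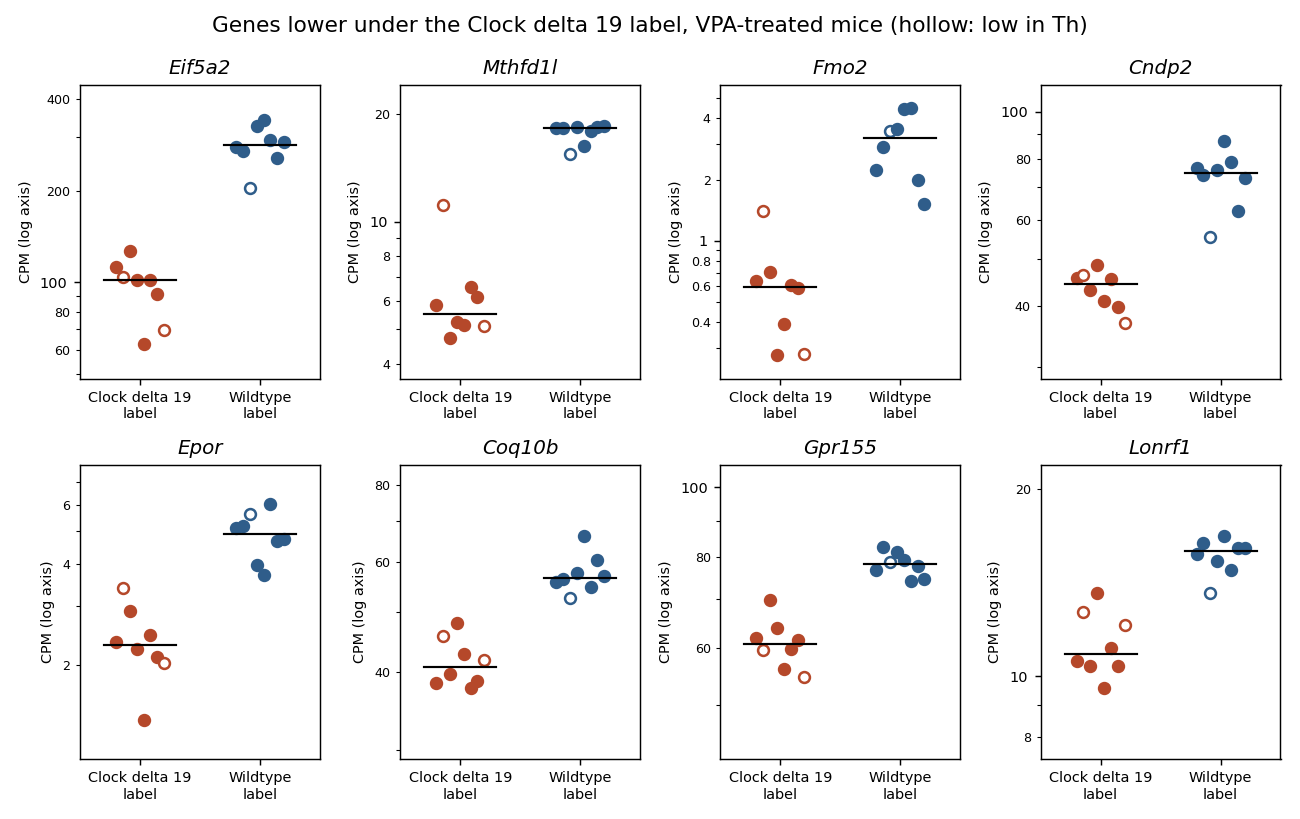
Each panel plots 1 gene in CPM on a log axis, laid out as in the plot of clock genes, for genes that were lower in the mutant label with no overlap. All 8 mutant-labelled points lie below all 8 wildtype-labelled points in every panel, from Eif5a2 (127 CPM at most against 204 at least) to Lonrf1.

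Smaller and less even decreases followed. Nln, the peptidase neurolysin, had 24.4, 26.8 and 30.9 CPM in the mutant label, against 27.2, 34.1 and 39.9 CPM in the wildtype label, a modest fold change of -0.34 with the smallest p of the lower genes (SE 0.06; edgeR adjusted p = 5.93e-04). Pdk3, a kinase that restrains pyruvate dehydrogenase (-0.27), and Cog3, a subunit of a Golgi tethering complex (-0.21), had fold changes of similar size. Stra6, a retinol transporter (-1.18), was at 44.2% and Kirrel2, a nephrin-like adhesion molecule (-1.0), at 50.2% of the wildtype-label mean. Morc4, a chromatin-associated ATPase, had a log2 fold change of -0.43, and Rtkn2 one of -0.99. Rtkn2 was lost without the 3 libraries low in Th (adjusted p = 0.0676), while the others named here were kept.

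The interferon-induced genes did not move together: of 26 tested, 17 were lower and 9 higher, with a median of -0.06, and only Ifit3 and Ifit3b passed. Ifit3 had 0.736, 1.04 and 2.56 CPM in the mutant label, against 2.42, 2.82 and 4.71 CPM in the wildtype label (-1.22, SE 0.23; edgeR adjusted p = 0.00259). Ifit3b had 2.92 CPM at the median in the mutant label against 6.32 CPM in the wildtype label (-1.04; adjusted p = 0.0134), and was lost without wildtype-labelled mouse 4 (adjusted p = 0.0552). These are near-identical neighbours on chromosome 19, so the split of reads between them is uncertain. Gapdh, a glycolytic enzyme with many near-identical copies in the genome, passed at the low level of 4.59 CPM at the median in the mutant label against 9.64 CPM in the wildtype label (-1.04; edgeR adjusted p = 0.00311). Its count is uncertain for that reason, and the other 15 tested glycolysis genes did not pass. Ier3, an immediate early gene (-0.28; adjusted p = 0.0429), was the one of 17 of its list to pass and was lost without the 3 libraries (adjusted p = 0.0868) and in 11 of 16 fits without 1 library.

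Among the higher genes, several were raised by a moderate amount in nearly all mutant-labelled mice. Emp2 (chr16:10281749-10313968, minus strand), a tetraspan membrane protein, had 30.6, 36.1 and 51.9 CPM in the mutant label, against 20.5, 24.3 and 34.7 CPM in the wildtype label. Only wildtype-labelled mouse 3, at 34.7 CPM, reached into the mutant-label range. The log2 fold change was 0.58 (SE 0.10; edgeR adjusted p = 4.65e-04). Adgrg1 (chr8:94974751-95014217, plus strand), the adhesion receptor GPR56 of glial cells and their precursors, had 143, 164 and 176 CPM in the mutant label, against 107, 124 and 145 CPM in the wildtype label (0.39, SE 0.06; edgeR adjusted p = 4.77e-04).

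Gpr37l1 (chr1:135160234-135167681, minus strand), a receptor of astrocytes, did not overlap between the labels. It had 549, 568 and 627 CPM in the mutant label, against 378, 464 and 528 CPM in the wildtype label (0.32, SE 0.07; edgeR adjusted p = 0.00716). S1pr4, a sphingosine 1-phosphate receptor, did not overlap either, at 1.1 to 2.38 CPM in the mutant label against 0.678 to 1.03 CPM in the wildtype label (0.92, SE 0.18; edgeR adjusted p = 0.00363). The gene Rlbp1, for a retinoid-binding protein known from glia of the retina (0.58), the progestin receptor family gene Paqr6 (0.44), Thrsp, a regulator of lipid synthesis (0.44), and Csad, an enzyme of taurine synthesis (0.33), all passed with and without the 3 libraries low in Th. So did Bcan, a proteoglycan of the brain's extracellular matrix (0.24; adjusted p = 0.0227), and Scd1, a fatty acid desaturase (0.29; adjusted p = 0.0138), which were chosen after their values were seen. With the 16 VPA libraries alone, Csad, Bcan and Scd1 had adjusted p of 0.0813, 0.0519 and 0.184, and Rlbp1, Paqr6 and Thrsp passed. Bcan was also lost without mutant-labelled mouse 26 or wildtype-labelled mouse 1, 4 or 5 (adjusted p up to 0.0968), and Scd1 without wildtype-labelled mouse 5 (0.0627).

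As a list, however, astrocyte markers did not pass: 12 of 14 tested genes were higher in the mutant label, none past the threshold, with a median of 0.17. Their summed level was 8256 to 9355 CPM in the mutant label and 7127 to 9412 CPM in the wildtype label. Endothelial markers had 9 of 12 higher and a median of 0.10, and Cldn5 passed. Cldn5 (chr16:18776847-18778262, plus strand), a tight junction protein of brain vessels, had 73.4, 80.6 and 86.3 CPM in the mutant label, against 42, 50 and 87.2 CPM in the wildtype label. The 87.2 CPM came from mouse 3, and the other 7 wildtype-labelled mice had 60.6 CPM or less. Its log2 fold change was 0.55 (SE 0.14; edgeR adjusted p = 0.0361), and it was kept without the 3 (0.69; adjusted p = 0.0103). It was lost in 8 of 16 fits without 1 library, namely mutant-labelled mouse 31 or 58 or wildtype-labelled mouse 1, 4, 5, 6, 7 or 8 (adjusted p up to 0.101). Markers of mural cells and fibroblasts had 12 of 14 higher, a median of 0.31 and no gene past the threshold. The collagen gene Col3a1 of that list passed without the 3 libraries (1.25; edgeR adjusted p = 0.0296), with mouse 28 at 14.1 CPM and the other 7 mutant-labelled mice at 1.15 to 3.83 CPM, against 1.44 to 3.36 CPM in the wildtype label. Without mouse 28 as well, Col3a1 had a log2 fold change of 0.47 (adjusted p = 0.415), and the list's median was 0.13, with 9 of 14 genes higher. With mouse 28 alone left out the median was 0.13 too.

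No gene passed among microglial (median -0.13), oligodendrocyte (0.01), general neuronal (-0.02) or GABA neuron markers (0.09). In all, 19 genes (0.122%) were higher in the mutant label with no overlap, and 9 of them passed, including Igsf1, a membrane protein of the immunoglobulin family. Igsf1 had 86.5, 132 and 241 CPM in the mutant label, against 62.4, 77.3 and 86 CPM in the wildtype label (0.89, SE 0.19; edgeR adjusted p = 0.0115), and did not pass without the 3 libraries (0.74; adjusted p = 0.0806).

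The largest increases lay in peptide genes of the hypothalamus, which borders the VTA. Pmch, the precursor of melanin-concentrating hormone, had 4.48, 19.7 and 542 CPM in the mutant label, against 3.73, 5.22 and 21 CPM in the wildtype label. The mutant-label values of 542, 349 and 98.8 CPM came from mice 58, 26 and 31, the 3 mutant-labelled mice with the least Th, and mouse 29 had 30.3 CPM. In the wildtype label the highest value, 21 CPM, was that of mouse 3, the mouse of that label with the least Th. Hcrt, the orexin precursor, was at 42.2, 23.8 and 18.7 CPM in mice 58, 31 and 26, at 0.283 to 1.06 CPM in the other 5 mutant-labelled mice, and at 0.392 to 1.33 CPM in the wildtype label. The groups overlapped for both genes.

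With all libraries Pmch and Hcrt had log2 fold changes of 4.10 and 4.14 (edgeR adjusted p = 4.97e-05 and 6.43e-05). Without the 3 libraries low in Th the values were 2.19 and 3.11 (adjusted p = 0.00636 and 0.00499), and without mouse 31 as well they were 0.97 and 0.24 (adjusted p = 0.333 and 0.906). Tac2, which codes for neurokinin B, and Pnoc, for nociceptin, passed with all libraries (2.09 and 0.67) and not without the 3 (adjusted p = 0.278 and 0.379), and were lost in 10 and 11 of the 16 fits without 1 library. Of 15 hypothalamic peptide genes tested, 12 were higher, with a median of 0.53. Their summed level was 82.8 to 765 CPM in the mutant label and 68.5 to 247 CPM in the wildtype label. None of the 15 was at 0 in all libraries.

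Of 23 hypothalamic transcription factors tested, 19 were higher and none passed, and the median of 0.58 was 0.28 without the 3 libraries and 0.08 without mouse 31 as well. Markers of ependyma and choroid plexus, which line the ventricles, had 13 of 15 higher and a median of 1.07, which was 0.29 without the 3 and -0.15 without the 4. Their summed level was 33.6 to 187 CPM in the mutant label, with 187 CPM in mouse 58 and 165 in mouse 26, against 32.2 to 91 CPM in the wildtype label. Rsph1, a ciliary gene of this list, passed with all libraries (1.72; edgeR adjusted p = 0.0235) and not without the 3 (0.56; adjusted p = 0.533), nor in 5 of the 16 fits without 1 library (mutant-labelled mouse 26 or 58 or wildtype-labelled mouse 1, 4 or 5; adjusted p up to 0.201).

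Dnaic1, a dynein gene of motile cilia on the same list, differed from Rsph1 in this respect. It had 8.22, 10.7 and 12 CPM in the mutant label, against 4.52, 5.69 and 9.19 CPM in the wildtype label, with 7 of 8 mutant-labelled mice above every wildtype-labelled one. Its log2 fold change was 0.76 (SE 0.13; edgeR adjusted p = 6.32e-04), and 0.80 both without the 3 and without the 4 libraries. The annotated ends of Dnaic1 and of Enho, the energy homeostasis gene that passed beside it (0.31; adjusted p = 0.0304), overlap on opposite strands. Whether reads were counted by strand is not given in the sources used here, so reads of the pair may not be told apart.

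Of the 26 genes higher by at least 1 on the log2 scale, mouse 58 was the highest mutant-labelled library for 13, mouse 26 for 11 and mouse 31 for 2. Fam47e, for example, at a median of 0.159 CPM in the mutant label and 0.0617 CPM in the wildtype label (3.21; edgeR adjusted p = 0.00536), was lost without the 3 libraries (adjusted p = 0.294). By contrast, of the 14 genes lower by at least 1, 11 passed without them. The medians of the 2 directions were 0.49 (0.38 without the 3) for the 111 higher genes and -0.64 (-0.65 without the 3) for the 46 lower genes.

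**Figure D3:**
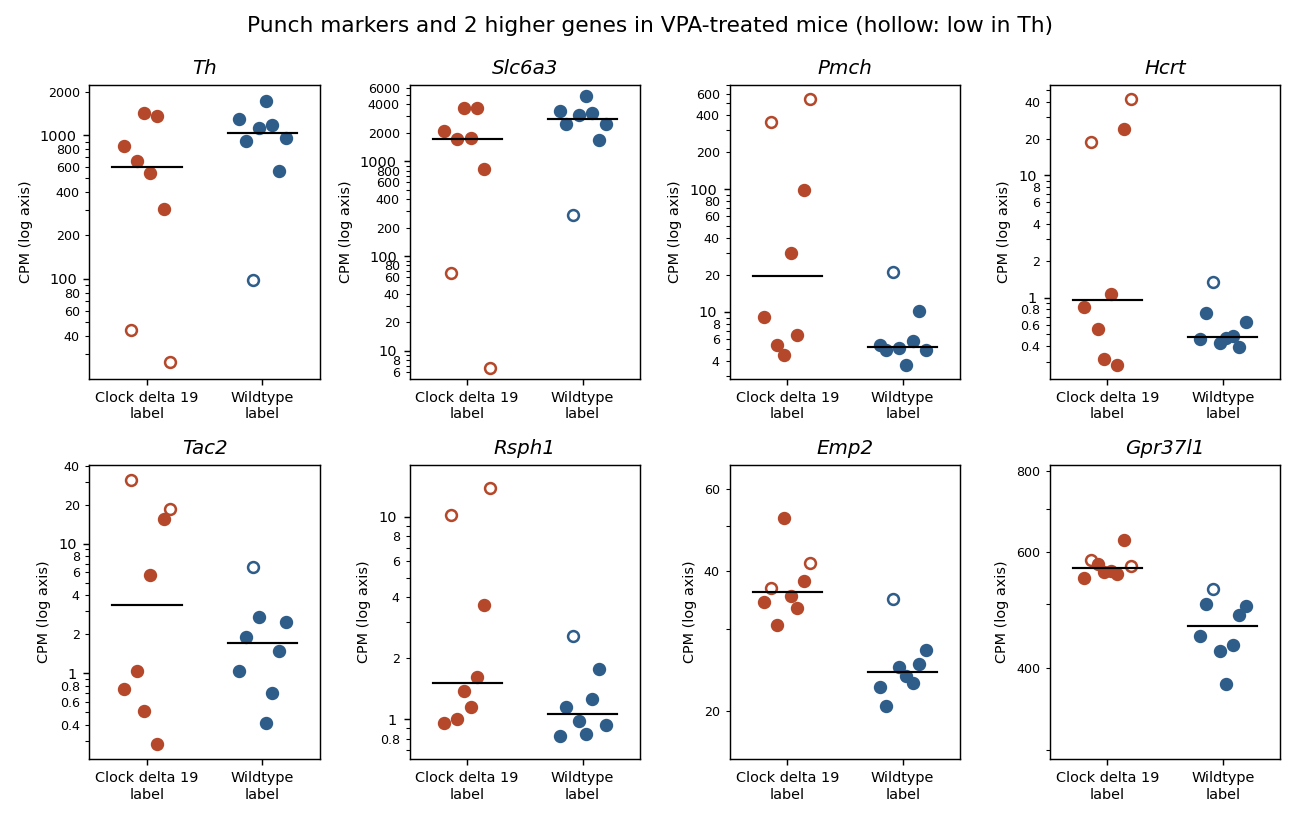
Each panel plots 1 gene in CPM on a log axis, laid out as in the plot of clock genes, for dopamine markers, hypothalamic peptides, the ciliary gene Rsph1 and the higher genes Emp2 and Gpr37l1. Pmch, Hcrt, Tac2 and Rsph1 are high in the mutant-labelled libraries with the least Th, up to 542 CPM of Pmch in mouse 58, whereas Gpr37l1 is higher in all 8 mutant-labelled mice.

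The dopamine genes themselves were lower in the mutant label, with none past the threshold. Synthesis and transport genes had a median of -0.59 (8 of 11 lower), transcription factors of dopamine neurons -0.35 (11 of 11) and their surface and peptide genes -0.40 (16 of 18). Without the 3 libraries the medians were -0.37, -0.29 and -0.27, and without mouse 31 as well they were -0.21, -0.17 and -0.14. Th had a log2 fold change of -0.59 (SE 0.41; edgeR adjusted p = 0.516), and Slc6a3 of -0.64 (SE 0.46; adjusted p = 0.527). The same lists had label medians of 0.24, 0.22 and 0.19 in the ACY957 mice, of -0.35, -0.24 and -0.35 in the VPA vehicle, and of -0.02, 0.04 and 0.04 in the ACY957 vehicle.

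Without the 3 libraries low in Th, 19 genes passed that had not passed with them. One of them, chosen after its values were seen, was Hrh3, the histamine H3 receptor. Hrh3 was at 8.44, 9.6 and 40.5 CPM in the mutant label, against 18.9, 28.8 and 33.1 CPM in the wildtype label. The mutant-label values of 40.5 and 23.6 CPM were those of mice 26 and 58, and the other 6 mice, at 10.7 CPM or less, lay below every wildtype-labelled mouse. Its log2 fold change was -0.88 with all libraries (edgeR adjusted p = 0.135) and -1.53 without the 3 (adjusted p = 0.00751). Cry1, Nfil3 and Col3a1, given above, were also among the 19, and without mouse 28 as well Hrh3 kept its call (adjusted p = 0.0225) while Col3a1 did not.

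The same label contrast in mice given ACY957 or a vehicle used other libraries, so it could be set beside the VPA contrast. No gene passed between the labels under ACY957 (edgeR, 0 of 15634; 757 at an unadjusted p under 0.05), 1 passed in the VPA vehicle (Ackr2, -2.50; 0.00640% of genes) and 2 in the ACY957 vehicle (Gapdh, -1.17, and Tuba1c, -0.94; 0.0128%). Of the 46 genes lower under VPA, 41 were lower in the mutant label under ACY957 as well, beside 49.9% of all genes, and 30 had an unadjusted p under 0.05, beside 2.67%. In the VPA vehicle 41 of the 46 were lower, beside 48.2% of all genes (18 at p under 0.05, beside 2.11%), and in the ACY957 vehicle 43, beside 52% (27 at p under 0.05, beside 2.06%). The median of the 46 was -0.35 in each of these 3 sets, against -0.64 under VPA. Genes of both directions were chosen by their VPA values, which by itself makes the VPA median larger. These medians therefore do not compare the size of the label difference between treatments.

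Of the 111 higher genes, 72 (64.9%, beside 50.1% of all genes) were higher under ACY957, 13 at p under 0.05 (11.7%, beside 2.17%), with a median of 0.04. In the VPA vehicle 97 were higher (87.4%, beside 51.8% of all genes), 20 at p under 0.05 (18%, beside 3.04%), with a median of 0.14. In the ACY957 vehicle 100 were higher (90.1%, beside 48%), 17 at p under 0.05 (15.3%, beside 1.55%), with a median of 0.10. Among the 37 genes that passed in all 5 fits, 21 of the 21 lower genes were lower under ACY957 (18 at p under 0.05) and 15 of the 16 higher genes were higher (5 at p under 0.05).

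As a list, the clock repressors had a label median of -0.58 under ACY957 (10 of 10 lower), against -0.61 under VPA. The clock outputs had -0.09 (10 of 16 lower), against -0.24 under VPA. Gene by gene, Per2, Ciart, Dbp, Cry2 and Tef, among the lower clock genes, had fold changes under ACY957 near those under VPA. Per2 was at -1.09 (SE 0.35), Ciart at -1.60 (SE 0.47), Dbp at -0.93 (SE 0.26), Cry2 at -0.57 (SE 0.14) and Tef at -0.57 (SE 0.15), and Arntl at 0.41 (SE 0.14). Eif5a2 was at -1.13 (SE 0.28), Mthfd1l at -1.29 (SE 0.31), Fmo2 at -1.52 (SE 0.48) and Epor at -1.0 (SE 0.23). The values of these 10 genes under ACY957 had unadjusted edgeR p-values between 5.95e-05 and 0.0057. Lower again in ACY957 mice, Nr1d1 was at -0.59 there (unadjusted p = 4.91e-04), against -0.19 under VPA.

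Several genes, on the other hand, had fold changes near 0 under ACY957. Nln was at -0.04 there, Morc4 at -0.04, Cog3 at -0.02 and Rtkn2 at 0.08, and on the higher side Gpr37l1 at 0.03, Csad at -0.04 and Tspan15 at -0.03. Whether the label difference itself differed between the drugs was tested as an interaction. Only Pmch passed (edgeR, 1 of 15634, 0.00640%; log2 difference of differences 4.32, adjusted p = 0.0236; 1385 genes at an unadjusted p under 0.05), and it did not pass without the 3 libraries low in Th, when no gene did. DESeq2 called Pmch and Hcrt, and limma voom called none. For Nln the interaction was -0.29 (edgeR adjusted p = 0.454), for Rtkn2 -1.07 (0.454) and for Csad 0.38 (0.248).

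Against the mean of the label differences in both vehicles no interaction passed (edgeR, 0 genes; 497 at an unadjusted p under 0.05). DESeq2 called 6 (Hcrt, Lect1, Pmch, Pttg1, Rlbp1 and Rtkn2) and limma voom none. A p above the threshold does not show that the label difference was equal between treatments.

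**Figure D4:**
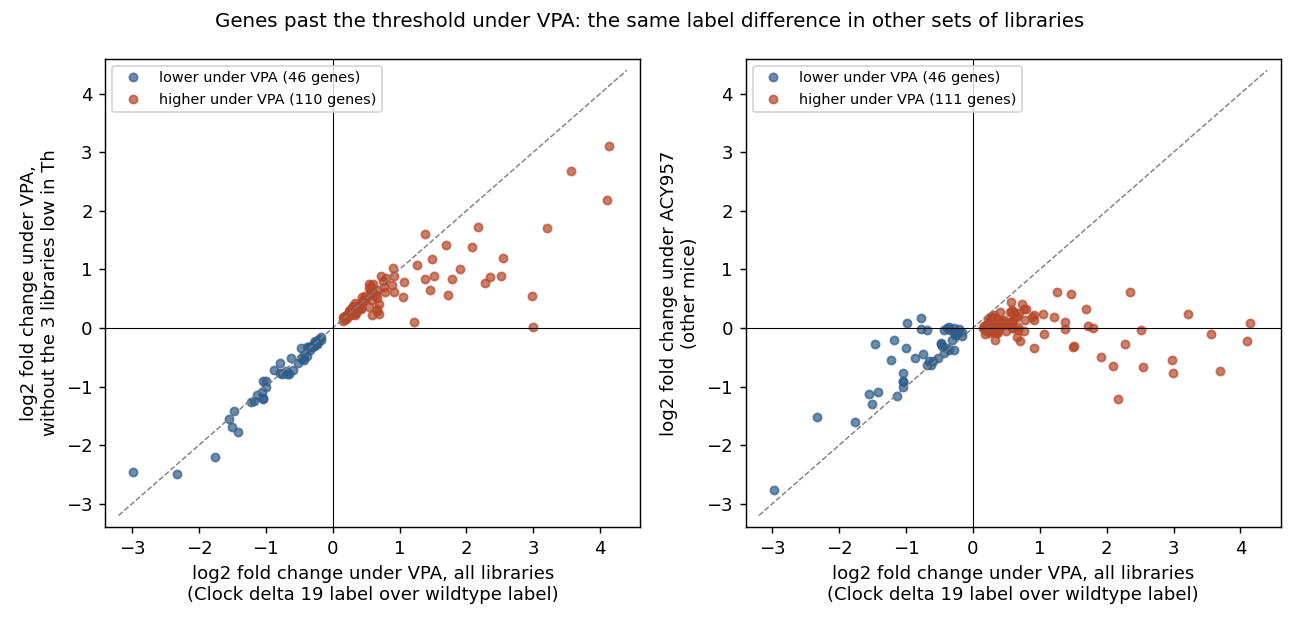
Each point is a gene that passed between the labels under VPA, with its log2 fold change from all libraries on the x axis and, on the y axis, its value without the 3 libraries low in Th (left) or in the ACY957 mice (right); the dashed line marks equal values. The 46 lower genes stay near the dashed line on the left and 41 of them stay below 0 on the right, while the largest increases shrink on the left and lie near 0 on the right; 1 higher gene was not tested without the 3 libraries and is missing on the left.

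Lists of histone deacetylases and of several other gene groups held no gene past the threshold. Both labels received VPA, so the medians below compare the labels and do not measure an effect of VPA. Histone deacetylases of class I with their corepressors had a median of -0.01 and the other histone deacetylases and sirtuins -0.03. Genes of inositol metabolism and GSK3 signalling had a median of 0.05, cholesterol synthesis 0.02, GABA-A receptor subunits 0.08 and synaptic vesicle genes -0.05. Immediate early genes had 15 of 17 lower (median -0.17), with Ier3 past the threshold as given above.

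Genes of ribosomal proteins and of the respiratory chain leaned higher by small amounts. Of 82 ribosomal protein genes tested, 79 were higher in the mutant label with a median of 0.14, and none passed. Their summed level was 21119, 22444 and 28518 CPM (lowest, median, highest) in the mutant label, against 20073, 21363 and 22757 CPM in the wildtype label. The mutant-label median thus lay within the wildtype-label range. Of 89 respiratory chain genes, 76 were higher with a median of 0.10, and Atp5sl alone passed (0.18; edgeR adjusted p = 0.0431), though not without the 3 libraries (adjusted p = 0.178) nor in 10 of 16 fits without 1 library. Under ACY957 the medians of these lists were 0.06 and 0.02. Many ribosomal protein genes have near-identical copies, so their counts are uncertain. The part of the lower depth of the mutant label in these lists was not tested.

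**Figure D5:**
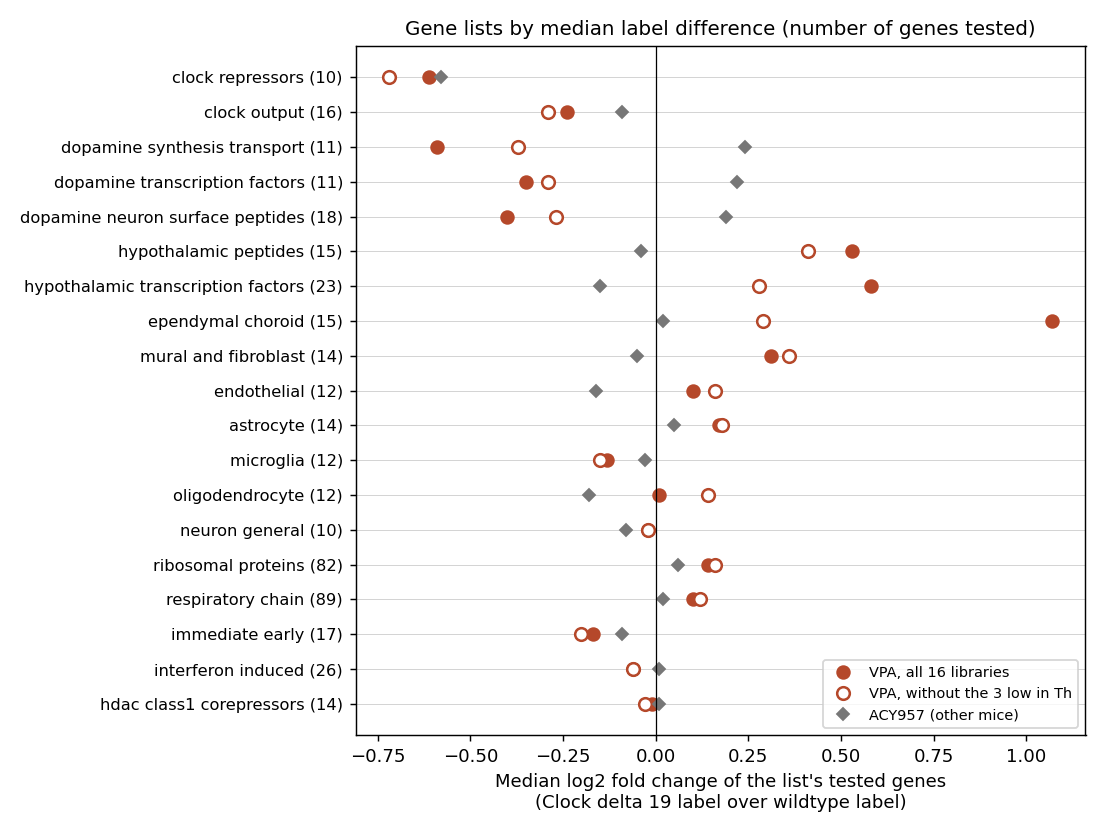
Each row is a gene list with the number of genes tested, and the x axis is the median log2 fold change of the mutant label over the wildtype label; filled circles are all 16 VPA libraries, open circles leave out the 3 low in Th, and grey diamonds are the ACY957 mice. The clock repressors lie near -0.6 in both drugs, and the ependymal list moves from 1.07 to 0.29 when the 3 libraries are left out. The dopamine lists lie below 0 under VPA and above 0 under ACY957. Vehicle medians are not drawn, and the text gives them for the dopamine lists only. In the VPA and ACY957 vehicles they were -0.37 and -0.45 for the clock repressors, and 0.28 and 0.66 for the ependymal list.

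By position, within 20 Mb of Clock on chromosome 5, 2 of 133 tested genes passed (1.5%), and on all of chromosome 5 3 of 982 did, beside 1.00% of all genes. Among the genes that passed, 7 pairs lay within 100 kb of each other, and in all 7 both members changed in the same direction. They included Ifit3 with Ifit3b, Ifit3b with Slc16a12 (a monocarboxylate transporter family gene, -0.69), Paqr6 with Pmf1 (0.36), Tlcd1 with Proca1 (0.37 and 0.57) and Dnaic1 with Enho. How many such pairs all tested genes hold was not counted, and 111 of the 157 genes that passed were higher. For Ifit3 with Ifit3b and Dnaic1 with Enho the split of reads is uncertain, as given above.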

How the data were processed

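The deposited values are raw read counts per gene symbol, to which the authors applied no normalization: 24421 symbols in 64 libraries, checked to be whole numbers. Per the design text the authors aligned reads to mm10 with TopHat2 2.0.9, after FastQC 0.11.3, and counted them with HTSeq 0.6.1 (union mode), while the submitters' processing notes name Trimmomatic and HISAT2, so the aligner differs between these sources. The strand setting of the counting is not given in the sources used here. Groups followed the genotype and treatment labels, and no library was moved.

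All counts entered edgeR 4.0.16 under R 4.3.3 (TMM scaling, filterByExpr, quasi-likelihood F tests) in 1 model of 8 group means over 64 libraries, which left 15634 genes, with Benjamini-Hochberg adjustment per comparison. Dividing a log2 fold change by the root of its F statistic gave the SE. Coordinates came from GENCODE M21 (mm10), with 24045 symbols placed. Alternatives were DESeq2 1.42.0, limma 3.58.1 voom, relative log expression scaling, no low-count filter, the 16 VPA libraries alone, Th as a covariate, and leaving out libraries. Thinning to equal depth and leaving out mouse 31 or mouse 28 beside the 3 libraries low in Th were chosen after seeing the data. The fit was also run on simulated counts. These held no differing punches or outlying libraries, so that run does not bear on how single libraries move the calls.

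The gene lists, 39 in all, the comparison and the libraries to doubt were chosen with earlier results of these data known. Named genes were all clock activators and repressors, the 15 with the smallest p in each direction, passing list members (10 per list at most), and the 10 in each direction that also passed without the 3 libraries, with predicted genes skipped; 1 clock gene is not reported here.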

Additional observations from a re-analysis of the deposited data

Results flagged for a closer look

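In 9 cases the extreme library of a group lay far from the other 7, by Dixon's limit for 8 samples, among 112 groups looked at (the 2 labels for each of 56 named genes). The limit was applied to log CPM, with 0.01 CPM added, while the values below are CPM. Chance gives such a case in about 1 of 20 groups.

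Of the 9, 6 belonged to mouse 26 of the mutant label, one of the 3 libraries low in Th, and each was the highest of its group. It had 8.2 CPM of Per2, with 2.95 CPM as the nearest other mutant-labelled value, and 8.89 CPM of Per3, with 4.12 CPM as the nearest. Cry1 was at 36.6 CPM in it (nearest 28.6), Bhlhe40 at 64.1 CPM (nearest 45.5), Mthfd1l at 11.1 CPM (nearest 6.54) and Ifit3b at 6.29 CPM (nearest 3.5).

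Wildtype-labelled mouse 3, also low in Th, had the highest Arntl of its group, 22.2 CPM, with 15.4 CPM as the nearest, and the lowest Th, 98 CPM, with 560 CPM as the nearest. Mutant-labelled mouse 31 had the highest Gpr37l1 of its group, 627 CPM, with 585 CPM as the nearest.

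Pmch differed between treatments in its label difference. The label difference under VPA exceeded that under ACY957 by 4.32 on the log2 scale (edgeR adjusted p = 0.0236). It was 4.10 under VPA, where the mutant label averaged 131 ± 203 CPM and the wildtype label 7.61 ± 5.75 CPM (SD, n = 8 each), and -0.22 under ACY957. The high values under VPA were those of the mutant-labelled mice 58, 26 and 31, the ones with the least Th, and without the 3 libraries low in Th 0 genes passed this test (edgeR).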

How the results depend on the processing

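Against 157 genes that passed between the labels under VPA (111 higher, 46 lower), the count was 73 with the 16 VPA libraries alone, 262 with DESeq2, 71 with Th as a covariate, 85 without the 3 libraries low in Th, and 46 (26 higher, 20 lower) without mouse 31 as well, and 48 (27 higher, 21 lower) without the 3 and mouse 28. With the VPA libraries alone and without the 3 low in Th, it was 111 (61 higher, 50 lower), and 52 of those genes were among the 157. It ranged from 51 to 504 when each library was left out in turn. It was 159 with relative log expression scaling, 127 with limma voom, 121 with no low-count filter and 123 at equal depth. The share of higher genes was 111 of 157, and 37 of 73 with the VPA libraries alone. The 1 gene whose label difference differed between VPA and ACY957 became 0 with the 32 drug libraries alone, with limma voom, without the 3 libraries and without the 4, and 2 with DESeq2. Against vehicles, 0 became 6 with DESeq2.

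Of 56 named genes, 44 passed. Over their 1186 pairs of gene and alternative, 978 kept direction and call, 208 kept direction alone and 0 reversed. The adjusted p over the alternatives (edgeR, DESeq2 or limma voom) ranged from 8.61e-06 to 0.0703 for Per2 and from 8.61e-06 to 0.106 for Ciart. For Tef it ranged from 1.77e-04 to 0.0844. Among genes that did not pass, Arntl2 (0.11) was -0.09 without the 4 libraries and -0.02 to 0.21 with each library left out, Rorb (0.03) was -0.08 with Th as a covariate and -0.04 to 0.12 with each library left out, and Th was 0.00 with itself as the covariate, by construction. No paired analysis was possible because the labels give the groups no shared replicate numbers. The causes were not tested. Depth of 25.2 to 37.5 M counts limits the precision at low CPM. With the 3 libraries and mouse 28 left out, 28 of the 44 kept their call and 16 kept direction alone, among them Bhlhe41, Ciart, Tef, Nr1d2, S1pr4, Epor and Cog3.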
